A study of Mus musculus with 21 samples.

Results

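The subject is the distal run of microRNAs (miRNAs) of the imprinted Dlk1-Dio3 region on mouse chromosome 12, the hairpins in and before the noncoding gene Mirg. Members were taken by miRNA number from the mature entries of the count table, and the rule used no measured value. This gave 72 of 1556 mature miRNA entries, from 36 hairpins. For 3 of the 36 numbers of the rule no mature entry was analysed here. Small RNA had been sequenced from 7 types of primary C57BL/6J mouse cells with 3 libraries per type, 21 in all: peritubular myoid (PTM) cells, the contractile cells around the seminiferous tubules, Leydig cells, which make testosterone, germ cells, Sertoli cells, which nurse the germ cells inside the tubule, and smooth muscle cells of 3 origins, vascular (VSMC), intestinal (ISMC) and tracheal (TSMC). All were grown untreated in DMEM/F12 with serum. The testicular types were isolated from testis by earlier published procedures, whereas the smooth muscle-like types were bought from a supplier, so that tissue and source cannot be told apart between them. The labels give no age, and they do not tie the libraries of a type to different mice or cultures, so the spread behind each p-value is that between libraries and may be technical.

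Genes of an imprinted region are expressed from the chromosome of 1 parent. In the Dlk1-Dio3 region the protein-coding genes Dlk1, Rtl1 and Dio3 are read from the paternal chromosome, and the noncoding RNAs Meg3, Rian and Mirg, with their snoRNAs and miRNAs, from the maternal one. Drosha and Dicer cut each miRNA hairpin into a 5p and a 3p arm, of which usually 1 is kept, and the seed (bases 2 to 8 of the mature strand) directs it to its targets. The miRNAs of this region are known best from brain, placenta, embryonic tissue and stem cells. In mouse and rat neurons miR-134 restrains translation in dendrites, and blocking miR-329, miR-494, miR-495 or miR-487b in mice improves blood flow after a leg artery is tied.

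Of the 72 members, 68 had a sequence in RefSeq (GRCm38.p6). Their mature strands spanned chr12:109709065-109747949 (38.9 kb), on the plus strand except for miR-299b. In the GENCODE vM21 annotation Mirg runs from chr12:109729764-109749460, and 43 of the 68 strands lay before its annotated start. Within Mirg, 15 lay in introns, 8 in exons and 2 across an exon edge. The label "Mirg cluster" thus covers a run of hairpins that begins upstream of the annotated gene and downstream of Rian, which ends at position 109661716. The 4 members without a RefSeq sequence were miR-485-5p, miR-376c-3p, miR-539-3p and miR-487b-3p.

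The mature strands that lead the cluster in tags, or that set cell types apart in the comparisons, are printed 5′ to 3′ with the seed in capitals. The first 6 are among the 9 most abundant members, and the next 6 had some of the largest called changes of a comparison.
miR-411-5p: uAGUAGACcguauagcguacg
miR-541-5p: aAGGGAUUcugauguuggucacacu
miR-134-5p: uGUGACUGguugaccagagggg
miR-667-3p: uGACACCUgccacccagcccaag
miR-379-5p: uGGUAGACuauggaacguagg
miR-382-5p: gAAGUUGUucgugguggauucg
miR-668-3p: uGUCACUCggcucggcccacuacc
miR-323-5p: aGGUGGUCcguggcgcguucgc
miR-412-5p: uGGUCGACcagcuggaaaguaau
miR-369-5p: aGAUCGACcguguuauauucgc
miR-376b-5p: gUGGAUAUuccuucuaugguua
miR-134-3p: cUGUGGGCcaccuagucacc

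The 68 sequences held 62 distinct seeds, and 6 seeds were each shared by a pair of members. Pairs printed next show where tags of near-identical strands may have been divided by the authors' counting, since how it treated a tag matching several entries is not stated in the labels. miR-379-3p and miR-411-3p share a seed and differ at 2 of 22 positions. miR-299b-3p is contained whole in miR-299a-3p. miR-376b-5p and miR-376c-5p share a seed and differ at 1 position. The 3p strands of miR-376a and miR-376b, whose precursors are known to be edited by ADAR enzymes in brain, differ within the seed. miR-379-5p also shares its seed with miR-1193-5p.
miR-379-3p: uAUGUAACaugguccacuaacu
miR-411-3p: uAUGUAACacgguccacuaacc
miR-299a-3p: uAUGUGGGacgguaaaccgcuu
miR-299b-3p: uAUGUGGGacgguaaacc
miR-376a-3p: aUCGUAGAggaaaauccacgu
miR-376b-3p: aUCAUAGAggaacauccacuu
miR-376c-5p: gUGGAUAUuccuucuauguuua
miR-1193-5p: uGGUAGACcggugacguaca

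The 21 libraries each had between 18.1 and 26.1 M tags of all classes (M, 1e6). Of these, 0.525 to 0.958 M were mature miRNA tags in the germ cell libraries, against 4.04 to 14.6 M elsewhere, so that 3 counts stood for 3.13 to 5.72 per 1e6 mature tags in germ cells and for 0.206 to 0.742 in the other 18 libraries. Those values for 3 counts are before TMM scaling. Levels are given as counts per 1e6 mature tags after TMM scaling (CPM). Marker miRNAs of other cells were summed beside the members. The 9 germ cell miRNAs summed to 106830 to 262670 CPM in germ cell libraries and averaged 542 to 1367 CPM in the other types. The 4 contractile miRNAs, miR-143 and miR-145, averaged 27812 CPM in PTM cells, 7032 CPM in Leydig cells, 46380 CPM in Sertoli cells, 17052 CPM in VSMC, 9726 CPM in ISMC and 16674 CPM in TSMC, so this list did not mark smooth muscle here. The 2 gonadal miR-202 strands averaged 1343 CPM in PTM cells, 665.3 CPM in Leydig cells and 843 CPM in Sertoli cells, and at most 1.78 CPM in a smooth muscle library. The 14 X-linked testis miRNAs, listed for Sertoli and germ cells, averaged 57072 CPM in Sertoli cells and 21482 CPM in germ cells. They averaged 56472 CPM in PTM cells, 503 CPM in Leydig cells and 7.42 to 46.7 CPM in the smooth muscle types. PTM and Sertoli libraries overlapped in this sum, and its part in the results was not tested. Endothelial (2 entries), haematopoietic (7) and epithelial (10) lists averaged 1789, 578 and 241 CPM in PTM cells, 275, 173 and 32.0 CPM in Leydig cells and 331, 201 and 216 CPM in Sertoli cells. Every entry of each list was above 0 in at least 1 library.

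The cluster was most abundant in smooth muscle cells, lower in Leydig cells, lower again in PTM cells and lowest in germ and Sertoli cells. Members took 0.273%, 0.198% and 0.247% of mature tags in the 3 PTM libraries, 0.706%, 0.727% and 0.668% in Leydig cells, 0.0370%, 0.0883% and 0.112% in germ cells and 0.0275%, 0.0246% and 0.0254% in Sertoli cells. They took 2.43%, 2.60% and 2.62% in VSMC, 2.13%, 1.93% and 1.85% in ISMC and 1.70%, 1.68% and 1.503% in TSMC. No neighbours in this order overlapped, from VSMC over ISMC, TSMC, Leydig, PTM and germ to Sertoli cells. The means differed 9.28-fold between PTM and Sertoli cells and 27.1-fold between Leydig and Sertoli cells. In bulk samples, fewer cells that express the cluster and less RNA per cell cannot be told apart.

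2 steps of this order depended on the scale. Summed CPM were 16877 to 21065 in ISMC and 15051 to 17323 in TSMC, which overlapped. Per tag of all RNA classes, members took 0.00247 ± 0.00149% in germ cells and 0.0102 ± 0.0040% in Sertoli cells (SD, n = 3 each), the reverse of their order per mature tag. Among the germ cell libraries the third had the highest member share. It also had the highest germ marker sum (262670 CPM, against 106830 and 129850) and the highest contractile sum (3643 CPM, against 905 and 317) and mesenchymal sum (2126 CPM, against 259.7 and 336), and their part in the result was not tested.

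**Figure D1:**
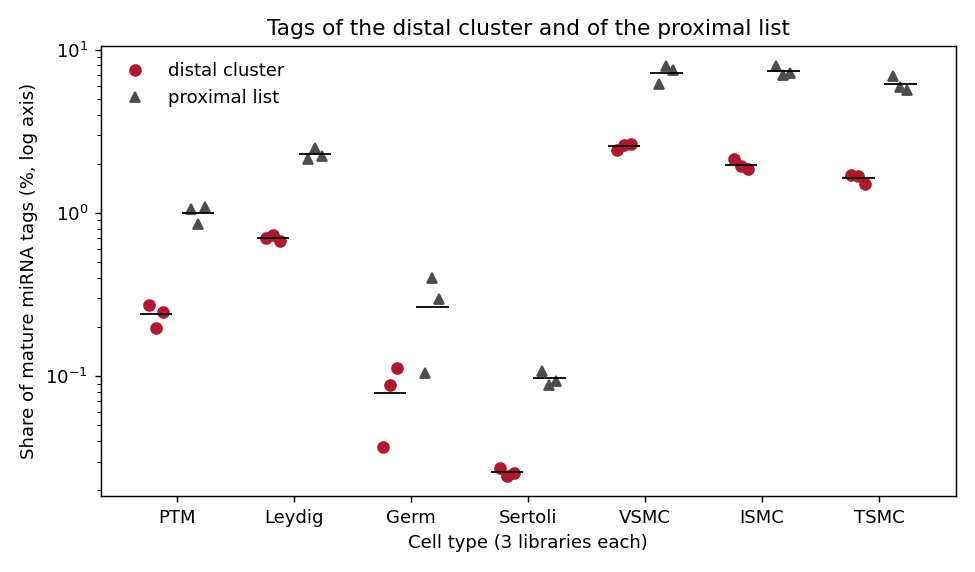
Share of mature miRNA tags (%, log axis) taken by the distal cluster (circles) and by the proximal Meg3-Rtl1 list (triangles) in each of the 3 libraries of 7 cell types; bars are means. The distal cluster lies between 0.0246% and 0.0275% in Sertoli cells and between 1.503% and 2.62% in smooth muscle cells, and the proximal list lies above it in every library.

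The miRNAs of the Meg3 to Rtl1 stretch upstream, here called the proximal list, showed nearly the same order. They took 1.001 ± 0.130% of mature tags in PTM cells, 2.29 ± 0.189% in Leydig cells, 0.267 ± 0.150% in germ cells and 0.0968 ± 0.0100% in Sertoli cells (SD, n = 3 each). They took 7.18 ± 0.878% in VSMC, 7.37 ± 0.454% in ISMC and 6.12 ± 0.641% in TSMC (SD, n = 3 each). The ratio of distal to proximal tags was 0.239 ± 0.0162 in PTM cells, 0.307 ± 0.0208 in Leydig cells and 0.267 ± 0.0114 in Sertoli cells. It was 0.358 ± 0.0322 in VSMC, 0.267 ± 0.0095 in ISMC and 0.267 ± 0.0194 in TSMC. The germ cell ratio was 0.317 ± 0.0836 (SD, n = 3 for each type). The ratio thus moved far less between types than the shares did, and its mean was highest in VSMC, where the distal share exceeded that of ISMC and the mean proximal share did not.

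The 29 tested proximal miRNAs were set beside the members in the same edgeR fit. Of them 18 were called higher in PTM than in Sertoli cells, against 9.93% of all miRNAs tested. In PTM cells 10 were lower than in Leydig cells (8.75% of all), 19 were higher than in germ cells (40.8% of all) and 24 were lower than in smooth muscle (18.8% of all). Leydig cells had 26 higher than Sertoli cells (16.5% of all), and 16 lower (14.9% of all) and 1 higher (27.7% of all) than smooth muscle. Between germ and Sertoli cells 0 of the 29 were called by edgeR and 0 had an unadjusted p under 0.05, while DESeq2 called 7 and limma-voom 4, all higher in germ cells.

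Few members carried most of the tags. The 10 members with the highest mean level over the 7 types held 80.3% to 86.7% of the member tags of a type. miR-411-5p, miR-541-5p and miR-485-5p were the leading 3 in each of the 7 types. miR-411-5p supplied 21.8 ± 1.87% of member tags in PTM cells, 25.1 ± 5.12% in Leydig cells, 14.8 ± 1.20% in germ cells, 15.2 ± 3.62% in Sertoli cells, 24.6 ± 0.960% in VSMC, 19.2 ± 2.02% in ISMC and 20.9 ± 2.39% in TSMC (SD, n = 3 each). The leading strands were thus shared by all types, while the cluster's share of mature tags differed 98.8-fold between VSMC and Sertoli cells. At the other end, 7 members did not reach 10 counts in 3 libraries and were not tested, with 95 counts in all for miR-376a-5p, 64 for miR-679-5p, 41 each for miR-1197-3p and miR-299b-5p, 2 for miR-376c-5p and 1 each for miR-539-3p and miR-382-3p. Of the 65 tested members, 5 had 10 counts in smooth muscle libraries alone, and a difference from smooth muscle is built into those 5. Others, such as miR-1197-5p and miR-758-3p, had 10 counts in fewer than 3 libraries outside smooth muscle. Their testing depended on smooth muscle as well.

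**Figure D2:**
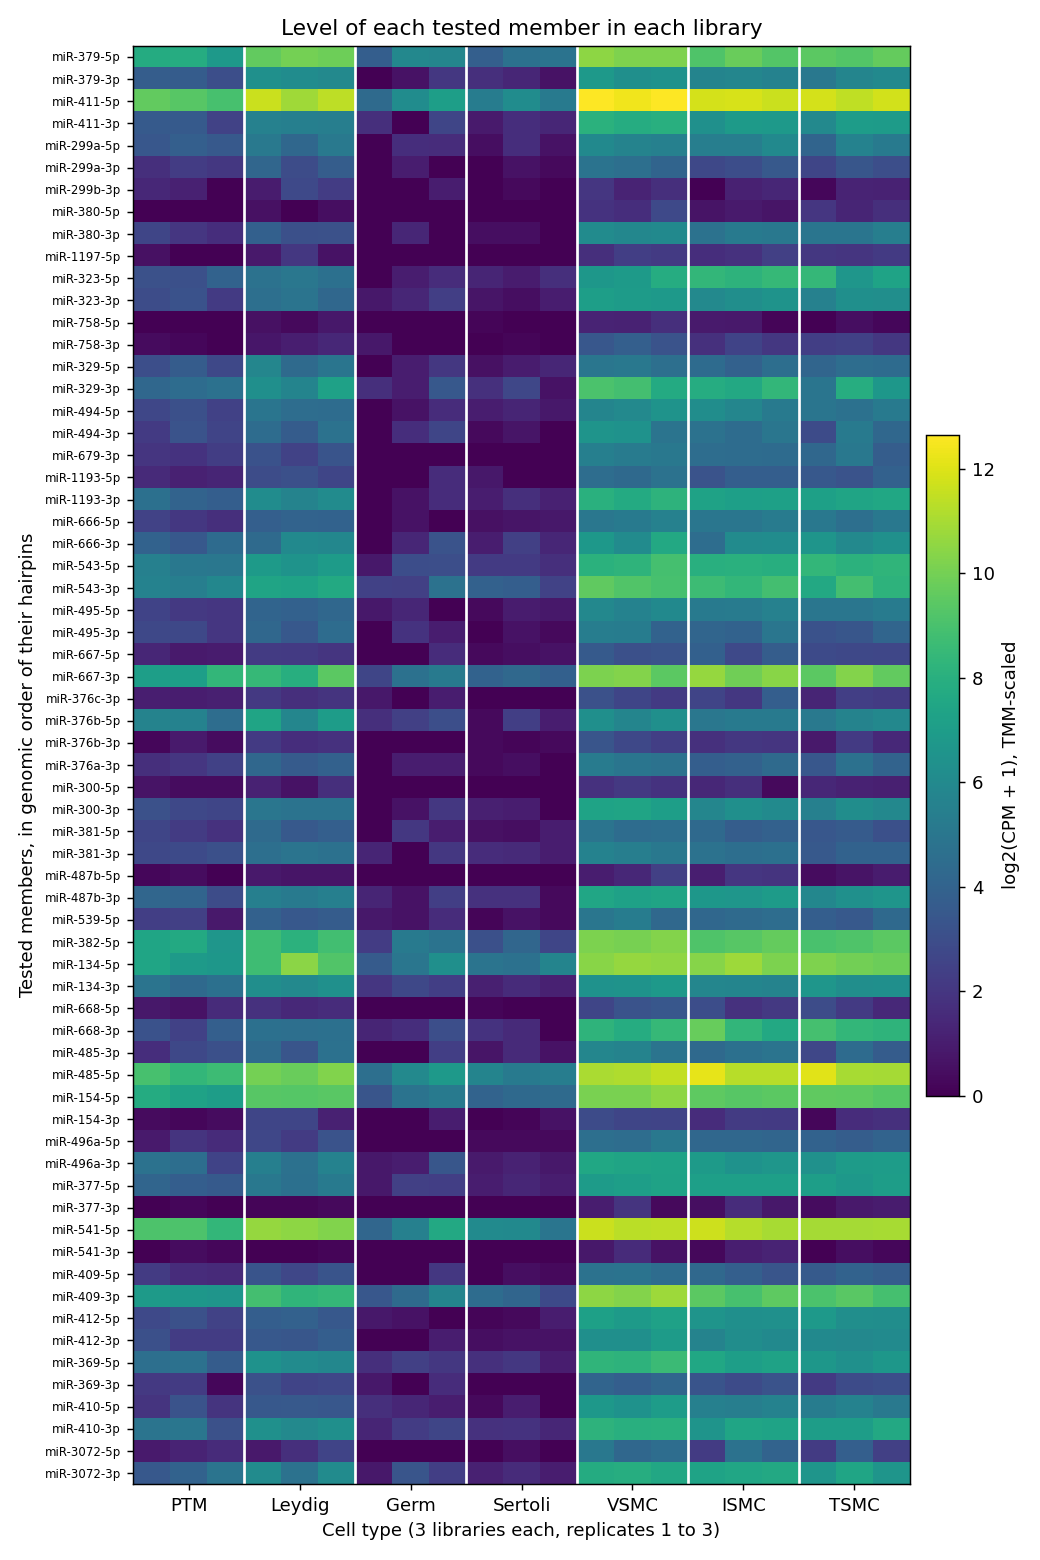
Level of the 65 tested members in 21 libraries, as log2(CPM + 1), with members in genomic order of their hairpins from top to bottom and libraries grouped by cell type. The bright lines of miR-411-5p, miR-485-5p and miR-541-5p run through every type, and the germ and Sertoli columns are the darkest.

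Each member was tested with edgeR's quasi-likelihood test, in 1 fit of all 21 libraries, with Benjamini-Hochberg adjustment over the 846 mature miRNAs tested, and called at an adjusted p under 0.05. All 65 tested members differed among the 7 types in the edgeR F test (largest adjusted p = 0.026), where 80.7% of all miRNAs tested were called. Comparisons that follow share libraries with each other. Each gives the median log2 fold change of the members beside that of all 846 miRNAs.

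PTM cells held more of the cluster than Sertoli cells, their neighbours across the tubule wall. Of 65 members, 51 were higher and 0 lower in PTM cells, with 9.93% of all miRNAs tested called higher and 1.42% lower (edgeR; 56 members at an unadjusted p under 0.05, 52 called by DESeq2 and 53 by limma-voom). Members had a median log2 fold change of 3.19, against 0.19 for all miRNAs. miR-411-5p stood at 789, 658 and 492 CPM in PTM cells, against 39.2, 70.6 and 35.6 CPM in Sertoli cells, a log2 fold change of 3.74 ± 0.52 (edgeR, adjusted p = 2.6e-05). The lowest PTM library was well above the highest Sertoli library. miR-382-5p stood at 174, 203 and 97.8 CPM in PTM cells, against 7.64, 17.2 and 5.34 CPM in Sertoli cells (3.97 ± 0.59, edgeR adjusted p = 5.8e-05). miR-667-3p had 135, 133 and 328 CPM in PTM cells, against 14.5, 18.1 and 13.5 CPM in Sertoli cells (3.69 ± 0.59, edgeR adjusted p = 0.0001). These 3 members had the largest called changes among those that reached 50 CPM in either group, and none of the 3 overlapped between the groups.

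Other abundant members changed alike between PTM and Sertoli cells. miR-485-5p, known in rodent neurons for limiting the synaptic vesicle protein SV2A, averaged 409.9 ± 84.3 CPM in PTM cells, against 42.4 ± 7.63 CPM in Sertoli cells (SD, n = 3 each). Its log2 fold change was 3.27 ± 0.50 (edgeR, adjusted p = 6.8e-05). The smallest change among the 15 most abundant members was that of miR-134-5p, with 172, 118 and 102 CPM in PTM cells, against 28.7, 25.2 and 50.9 CPM in Sertoli cells (1.91 ± 0.54, edgeR adjusted p = 0.02). This call was lost in 4 of 15 alternatives, 3 of them without PTM library 1 or without Sertoli library 1 or 2, with adjusted p values of 0.0076 to 0.11 over the 15. The other arm of its hairpin, miR-134-3p, averaged 23.8 ± 4.59 CPM in PTM cells, against 1.45 ± 0.448 CPM in Sertoli cells (4.01 ± 0.42, edgeR adjusted p = 2.2e-06). When only PTM and Sertoli libraries entered the fit, 46 members were tested and 32 called, with medians of 2.89 for members and −0.14 for all miRNAs. The share of all miRNAs called in that fit is not given here.

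The other members among the 15 most abundant showed the same order in PTM, Leydig and Sertoli cells. miR-154-5p, studied in human lung fibrosis, averaged 168 ± 46.2 CPM in PTM cells, 658 ± 23.2 CPM in Leydig cells, 23.8 ± 13.4 CPM in germ cells and 18 ± 2.34 CPM in Sertoli cells (SD, n = 3 each). For miR-409-3p the means were 105 ± 10.6, 371 ± 84.2, 27.1 ± 21.9 and 14.5 ± 7.6 CPM in PTM, Leydig, germ and Sertoli cells. Both were called higher in PTM than in Sertoli cells, by 3.22 ± 0.42 and 2.85 ± 0.51 on the log2 scale (edgeR, adjusted p = 2.5e-05 and 0.00036), and both were called lower in PTM than in Leydig cells. For miR-409-3p the call against Leydig cells was lost in 3 of 15 alternatives, without PTM library 2 or 3 or Leydig library 1, with adjusted p values of 3.4e-05 to 0.076 over the 15. miR-329-3p averaged 21.6 ± 3.84 CPM in PTM cells, 94 ± 52.4 CPM in Leydig cells and 2.8 ± 2.52 CPM in Sertoli cells. Its call between PTM and Sertoli cells (2.90 ± 0.78, edgeR adjusted p = 0.014) was lost without Sertoli library 1 or 3, with adjusted p values of 0.00068 to 0.071 over 15 alternatives.

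Both arms of mir-543 were measured well, while most strands of the miR-376 family were scarce. miR-543-3p averaged 48.5 ± 8.08 CPM and miR-543-5p 36.2 ± 7.36 CPM in PTM cells, against 10.5 ± 5.2 CPM and 3.03 ± 0.637 CPM in Sertoli cells. In smooth muscle their means were 443 and 301.3 CPM, and both were called lower in PTM cells (−3.14 ± 0.53 and −3.04 ± 0.43, edgeR adjusted p = 3.4e-05 and 4.6e-06). miR-376a-3p averaged 3.22 ± 1.08 CPM in PTM cells, 14.2 ± 3.13 CPM in Leydig cells and 0.214 ± 0.199 CPM in Sertoli cells, and miR-376b-3p averaged 0.449 ± 0.374, 2.73 ± 0.697 and 0.212 ± 0.0701 CPM there. miR-376a-3p was called higher in PTM than in Sertoli cells (3.62 ± 0.66, edgeR adjusted p = 0.00044), and miR-376b-3p did not pass (1.04 ± 0.85, edgeR adjusted p = 0.64). In this family the 5p strand of miR-376b, at 39.8 ± 15.3 CPM in PTM cells, was thus far more abundant than its 3p strand.

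Leydig cells exceeded PTM cells in the cluster. Of 65 members, 0 were higher and 34 lower in PTM cells than in Leydig cells, with 7.8% of all miRNAs tested called higher and 8.75% lower (edgeR; 55 at an unadjusted p under 0.05, 47 lower by DESeq2 and 40 by limma-voom). Members had a median of −1.77 and all miRNAs −0.06. miR-379-5p, the first miRNA of the run, stood at 222, 228 and 112 CPM in PTM cells and 778, 1041 and 933 CPM in Leydig cells (−2.29 ± 0.47, edgeR adjusted p = 0.0017). Its partner strand miR-379-3p stood at 12.1, 11.8 and 7.19 CPM in PTM cells and 79.4, 71.2 and 60.4 CPM in Leydig cells (−2.76 ± 0.54, edgeR adjusted p = 0.0011). The 5p strand was 4.89-fold and the 3p strand 6.78-fold lower in PTM cells, with no overlap, although miR-379-3p is near-identical to miR-411-3p. miR-134-5p stood at 172, 118 and 102 CPM in PTM cells and 420.0, 1399 and 594 CPM in Leydig cells (−2.62 ± 0.55, edgeR adjusted p = 0.0022), and the second Leydig library was the highest.

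Several members, some of them with large levels, did not pass the threshold between PTM and Leydig cells. miR-541-5p averaged 479 ± 130.2 CPM in PTM cells and 1432 ± 190.3 CPM in Leydig cells (−1.58 ± 0.56, edgeR adjusted p = 0.056). miR-667-3p averaged 198.7 ± 112 CPM in PTM cells and 432.9 ± 245 CPM in Leydig cells (−1.12 ± 0.54, edgeR adjusted p = 0.16). For the scarcer miR-412-5p the fold change was −1.01 ± 0.46 (edgeR, adjusted p = 0.13). The number of lower members was 17 without PTM library 3, 21 without PTM library 2 and 20 without Leydig library 1, and ran from 17 to 31 when each of the 6 libraries was left out in turn.

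Along the cluster, the difference between PTM and Leydig cells tended to be larger toward the upstream end. Over 62 members with a position, the Spearman correlation of the log2 fold change, PTM over Leydig, with the distance from the first strand was 0.52. In the other 10 comparisons the same correlation was between −0.25 and 0.25. The points share the same 6 libraries and lie on 1 stretch of chromosome, so this is a description without a test. Single members departed from it. miR-379-5p at the start fell by 2.29 on the log2 scale, while miR-134-5p, 25.1 kb further on, fell by 2.62. Near the far end, miR-409-3p at 34.1 kb and miR-369-5p at 34.4 kb were called lower (−1.82 ± 0.49 and −1.77 ± 0.41, edgeR adjusted p = 0.013 and 0.0045), and miR-412-5p between them at 34.2 kb was not past the threshold (−1.01).

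**Figure D3:**
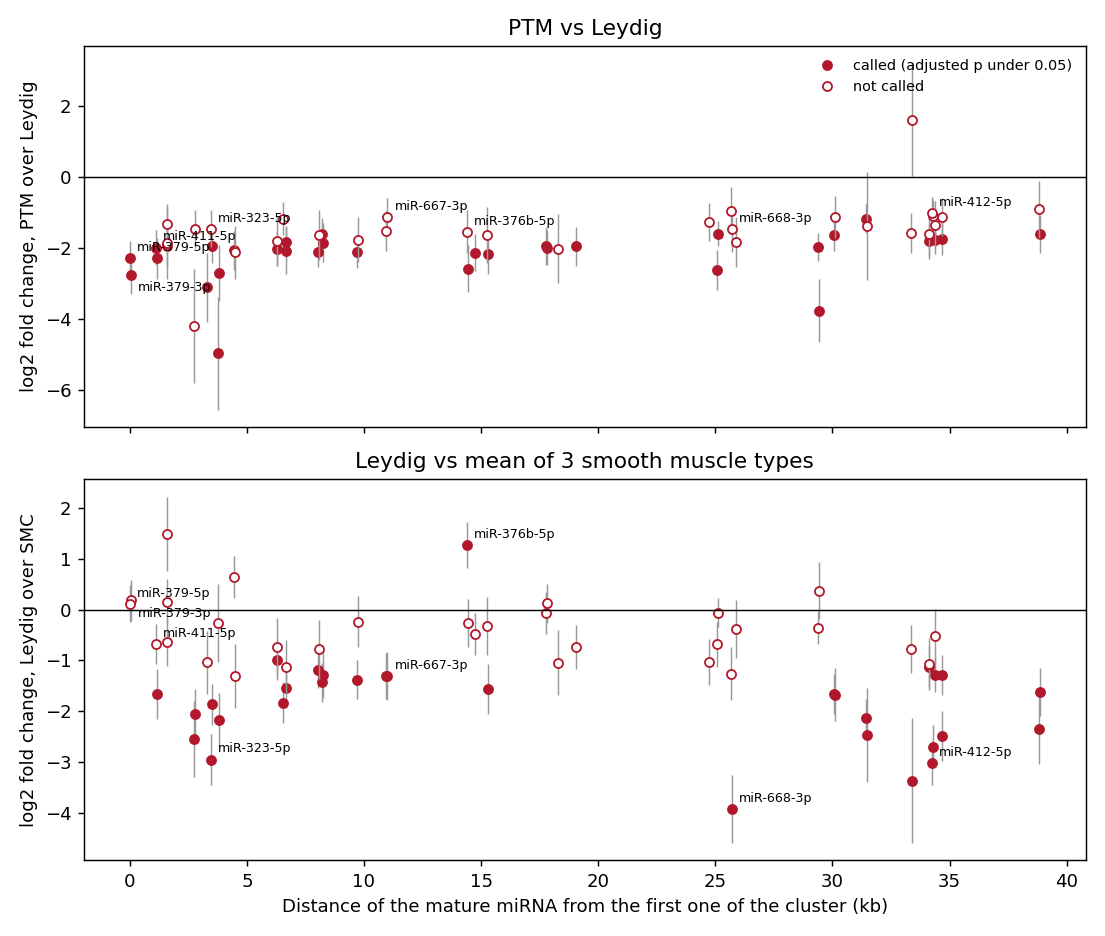
log2 fold change of each tested member (y axis) against its distance in kb from the first mature strand of the cluster (x axis), for PTM over Leydig cells above and for Leydig cells over the mean of 3 smooth muscle types below; bars are standard errors and filled points were called at adjusted p under 0.05. In the upper panel called points lie below 0 along the whole stretch, and in the lower panel miR-376b-5p is the filled point above 0 and miR-668-3p the lowest.

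Smooth muscle cells held more of the cluster than PTM cells, although PTM cells are themselves smooth muscle-like. Against the equal-weight mean of VSMC, ISMC and TSMC, 0 of 65 members were higher and 62 lower in PTM cells, with 28.7% of all miRNAs tested called higher and 18.8% lower (edgeR; 62 at an unadjusted p under 0.05, 62 lower by DESeq2 and 62 by limma-voom). Of the 60 members with at least 10 counts in some library outside smooth muscle, 58 were lower. Some of the 60, such as miR-1197-5p and miR-758-3p, still needed smooth muscle libraries to be tested, so a difference is built into those too. The median log2 fold change was −3.01 for members and 0.22 for all miRNAs. miR-668-3p stood at 8.24, 4.52 and 13.2 CPM in PTM cells and at 195 to 822 CPM, median 323.1, in the 9 smooth muscle libraries, and was 42-fold lower in PTM cells (−5.39 ± 0.74, edgeR adjusted p = 2.5e-06). miR-323-5p stood at 7.94, 7.47 and 14.5 CPM in PTM cells and at 98.2 to 353 CPM, median 228, in smooth muscle (−4.42 ± 0.55, edgeR adjusted p = 8.5e-07). miR-412-5p stood at 5.95, 7.82 and 4.57 CPM in PTM cells and at 72.6 to 149 CPM, median 93.1, in smooth muscle (−4.03 ± 0.47, edgeR adjusted p = 3.6e-07). These had the largest called changes among members that reached 50 CPM in either group, and no PTM library reached the lowest smooth muscle library in any of them.

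The leading strands of the cluster had smaller fold changes. miR-411-5p was 6.37-fold lower in PTM cells (−2.67 ± 0.45, edgeR adjusted p = 3.8e-05), at a mean of 647 CPM against 4277 CPM in smooth muscle. miR-541-5p was 5.11-fold lower (−2.35 ± 0.52, edgeR adjusted p = 0.00073). The 3 members that did not pass were miR-376b-5p, miR-299b-3p and miR-541-3p, and the last of these averaged under 1 CPM in PTM cells and in the mean of the smooth muscle types. miR-376b-5p stood apart by its level, with 49.3, 48 and 22.2 CPM in PTM cells and 31.4 to 76.7 CPM, median 50, in smooth muscle. The groups overlapped, and its log2 fold change of −0.27 ± 0.49 was not past the threshold (edgeR, adjusted p = 0.69).

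Between PTM cells and germ cells the whole profile was shifted, and the cluster stood only slightly above that shift. Of 65 members, 42 were higher and 0 lower in PTM cells, where 40.8% of all miRNAs tested were called higher and 16.2% lower (edgeR; 46 at an unadjusted p under 0.05, 23 higher by DESeq2, and 43 higher with 2 lower by limma-voom). The median log2 fold change was 2.42 for members and 1.79 for all miRNAs, a difference of 0.64. With RLE scaling the medians were 1.43 and 0.69, and 27 members were called. miR-411-5p stood at 789, 658 and 492 CPM in PTM cells and 19.5, 69.4 and 136.4 CPM in germ cells, from 26, 132 and 132 germ cell counts (3.11 ± 0.51, edgeR adjusted p = 2.9e-05). miR-667-3p (3.17 ± 0.59, edgeR adjusted p = 0.00011) and miR-382-5p (2.83 ± 0.57, edgeR adjusted p = 0.00024) were the other 2 of the 3 largest called changes among members that reached 50 CPM in either group. Some scarcer members, such as miR-412-5p and miR-323-5p, had larger fitted changes that rest on few germ cell counts (1, 1 and 0 for miR-412-5p and 0, 2 and 2 for miR-323-5p). Without germ cell library 1, the one with the fewest mature tags, 26 members were called.

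The cluster set Leydig cells further from Sertoli cells than any other pair of testicular types compared here. Of 65 members, 61 were higher and 0 lower in Leydig cells, with 16.5% of all miRNAs tested called higher and 8.87% lower (edgeR; 63 at an unadjusted p under 0.05, 61 higher by DESeq2 and 62 by limma-voom). The median of the members was 4.89, and that of all miRNAs 0.11. miR-411-5p stood at 3172, 1840.5 and 2714 CPM in Leydig cells and 39.2, 70.6 and 35.6 CPM in Sertoli cells, 53.1-fold higher in Leydig cells (5.73 ± 0.57, edgeR adjusted p = 1.1e-07). miR-376b-5p stood at 169, 55 and 125 CPM in Leydig cells and 0.25, 4.06 and 1.02 CPM in Sertoli cells (5.99 ± 0.75, edgeR adjusted p = 1.5e-06). miR-134-3p stood at 74.2, 60.8 and 81.4 CPM in Leydig cells and 1.13, 1.97 and 1.27 CPM in Sertoli cells (5.61 ± 0.44, edgeR adjusted p = 1.4e-08). None of these 3 overlapped between Leydig and Sertoli cells, and none of the 3 lost its call in any of 15 alternatives. The summed mesenchymal markers, miR-199 and miR-214, lay at 16309 to 21172 CPM in Leydig cells and 12442 to 19457 CPM in Sertoli cells, which overlapped, and at 6162 to 7993 CPM in PTM cells, and their part in the result was not tested.

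Leydig cells came closer to smooth muscle than PTM cells did, though 57 of 65 members had a negative fold change there. Against the mean of VSMC, ISMC and TSMC, 32 of 65 members were lower and 1 was higher in Leydig cells, with 14.9% of all miRNAs tested called lower and 27.7% called higher (edgeR; 38 members at an unadjusted p under 0.05). The median log2 fold change was −1.14 for members and 0.09 for all miRNAs. miR-668-3p stood at 24.2, 23.3 and 24.5 CPM in Leydig cells and was 15.2-fold lower than in smooth muscle (−3.92 ± 0.67, edgeR adjusted p = 5.8e-05). miR-412-5p stood at 12.7, 14.2 and 10.2 CPM in Leydig cells (−3.02 ± 0.44, edgeR adjusted p = 8.7e-06), and miR-323-5p at 26.7, 31.3 and 24.8 CPM (−2.96 ± 0.50, edgeR adjusted p = 5.3e-05). These are the same 3 members with the largest falls in PTM cells, a comparison that shares the smooth muscle libraries. miR-485-5p was also lower (−1.41 ± 0.41, edgeR adjusted p = 0.0075), with 1038, 868 and 1219 CPM in Leydig cells.

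The leading strands at the start of the cluster overlapped between Leydig cells and smooth muscle. miR-379-5p stood at 778, 1041 and 933 CPM in Leydig cells and 579.7 to 1451 CPM, median 799.6, in smooth muscle, with a log2 fold change of 0.11 ± 0.36 (edgeR, adjusted p = 0.85) that turned to −0.35 with RLE scaling and −0.48 with library totals. miR-411-5p had a value of −0.68 ± 0.40 (edgeR, adjusted p = 0.18) and overlapped between the groups. miR-376b-5p was the 1 higher member, at 169, 55 and 125 CPM in Leydig cells against 31.4 to 76.7 CPM, median 50, in smooth muscle (1.28 ± 0.45, edgeR adjusted p = 0.027). The second Leydig library lay inside the smooth muscle range, and the call was lost in 8 of 21 alternatives, with adjusted p values of 0.0018 to 0.24 over the 21. Between Leydig cells and TSMC alone, the nearest types in the order, 15 members were lower and 0 higher in Leydig cells, with 11.5% of all miRNAs tested called lower and 22.1% higher (edgeR; 22 at an unadjusted p under 0.05, 35 lower by DESeq2 and 19 by limma-voom; median −0.77 for members and 0.08 for all miRNAs). Without Leydig library 2, 8 were called.

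Germ and Sertoli cells were both low, and their order could not be fixed. Of 65 members, 7 were higher and 0 lower in germ cells, with 18.2% of all miRNAs tested called higher and 32.2% lower (edgeR; 11 at an unadjusted p under 0.05, 27 higher by DESeq2 and 16 by limma-voom). The median of the members was 0.53, and that of all miRNAs −1.14. Per tag of all classes the sign of the member median turned, with 31 members lower in germ cells and a median of −1.85. The median of all miRNAs was then −3.44, so members still lay above the profile as a whole. The 7 called members were miR-134-3p, miR-3072-3p, miR-323-3p, miR-369-3p, miR-376c-3p, miR-377-5p and miR-494-3p. These calls rest on few tags. miR-376c-3p had 1, 0 and 1 counts in germ cells and 0 in all 3 Sertoli libraries. miR-494-3p had 0, 4 and 5 counts in germ cells and 2, 5 and 0 in Sertoli cells. For miR-323-3p the counts were 1, 3 and 4 in germ cells and 5, 3 and 4 in Sertoli cells. miR-134-3p had 4, 11 and 4 counts in germ cells and 9, 15 and 5 counts in Sertoli cells, which scaled to 3, 5.78 and 4.13 CPM in germ cells and 1.13, 1.97 and 1.27 CPM in Sertoli cells (1.57 ± 0.43, edgeR adjusted p = 0.004). The 4 counts in germ libraries 1 and 3 were close to the floor of 3 counts, while the 11 counts in germ library 2 were above it. The number called was 4 without Sertoli library 1 or germ library 2, and 19 without germ library 1. For miR-369-3p, with a role in translation of quiescent human cells, the counts were 1, 0 and 2 in germ cells and 0 in all 3 Sertoli libraries, so no fold is given. The abundant miR-411-5p stood at 19.5, 69.4 and 136.4 CPM in germ cells and 39.2, 70.6 and 35.6 CPM in Sertoli cells, which overlapped (0.63 ± 0.47, edgeR adjusted p = 0.28).

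**Figure D4:**
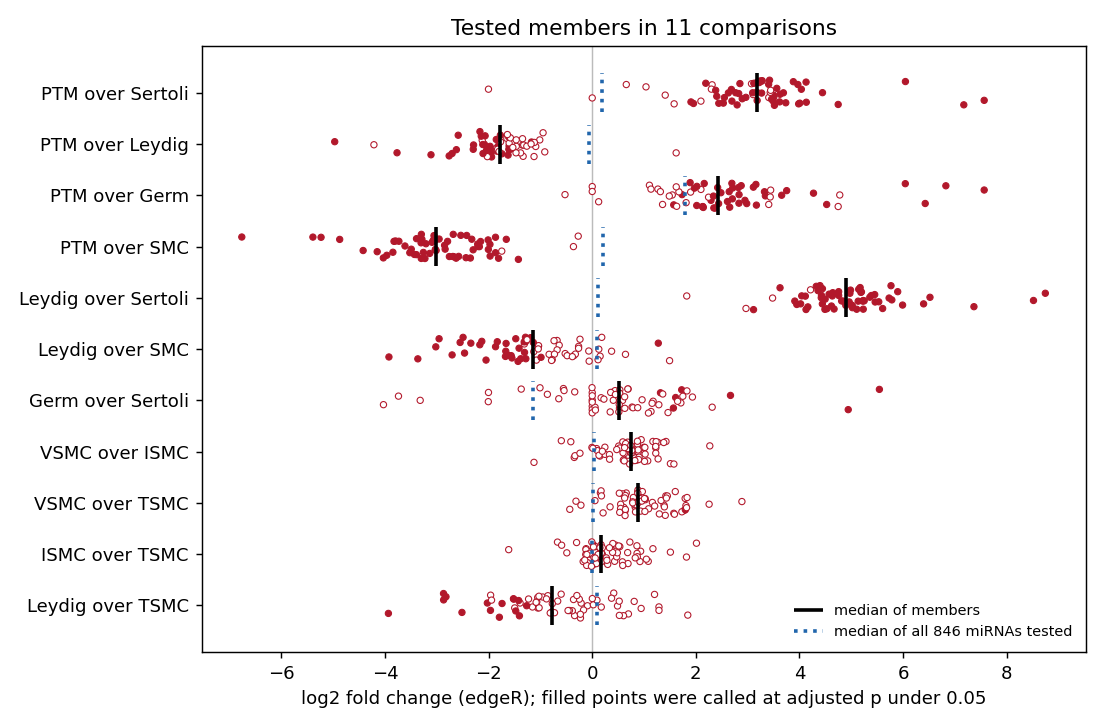
log2 fold changes of the 65 tested members (x axis) in 11 comparisons (rows), filled where called at adjusted p under 0.05; black bars are medians of the members and dotted bars medians of all 846 miRNAs tested. The member median is 4.89 in Leydig over Sertoli cells and −3.01 in PTM over smooth muscle cells, while in PTM over germ cells the 2 medians are 2.42 and 1.79.

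Among smooth muscle types the members leaned higher in VSMC but rarely passed the test. Between VSMC and ISMC, 58 of 65 fold changes were positive, with a median of 0.74 for members and 0.04 for all miRNAs, and 0 members were called in either direction, where 0.0% of all miRNAs tested were called higher and 1.3% lower in VSMC (edgeR; 13 at an unadjusted p under 0.05, 7 by DESeq2 and 0 by limma-voom). With only VSMC and ISMC in the fit 15 members were higher in VSMC and 1 was lower, with medians of 0.65 for members and 0.04 for all miRNAs. The share of all miRNAs called in that fit is not given here. Between VSMC and TSMC the median was 0.89 for members and 0.01 for all miRNAs, and 1 member was called higher in VSMC, where 1.18% of all miRNAs tested were called higher and 2.13% lower (edgeR; 23 at an unadjusted p under 0.05, 15 by DESeq2 and 5 by limma-voom). That member was miR-369-5p, at 314, 287 and 391 CPM in VSMC and 101, 81.6 and 102 CPM in TSMC (1.80 ± 0.41, edgeR adjusted p = 0.011). The groups did not overlap, yet leaving out any 1 of 5 of these 6 libraries ended the call, with adjusted p values of 2.6e-06 to 0.088 over 15 alternatives. Between ISMC and TSMC the median was 0.18 for members and −0.0017 for all miRNAs, and 0 members were called, where 0.827% of all miRNAs tested were called higher and 0.118% lower in ISMC (edgeR; 2 at an unadjusted p under 0.05, 1 by DESeq2 and 0 by limma-voom). The summed endothelial markers, 2 entries that were both above 0, ran from 2974 to 3743 CPM in VSMC, 1063 to 1376 CPM in ISMC and 144.9 to 253 CPM in TSMC, without overlap, and their part in these differences was not tested.

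A few members went the other way among smooth muscle types. miR-323-5p stood at 104, 116 and 228 CPM in VSMC and 332, 293 and 353 CPM in ISMC, without overlap, but its log2 fold change of −1.12 ± 0.51 was not past the threshold (edgeR, adjusted p = 0.36). miR-668-3p stood at 301, 226 and 358 CPM in VSMC and 822, 323.1 and 195 CPM in ISMC, which overlapped (−0.60 ± 0.64, edgeR adjusted p = 0.7, turning to 0.077 without ISMC library 1). miR-411-5p stood at 6214, 5345 and 6419 CPM in VSMC, 3640.1, 3750.2 and 3196 CPM in ISMC and 3596, 2807 and 3521 CPM in TSMC. VSMC lay above both others, while ISMC and TSMC overlapped (0.76 ± 0.47 for VSMC over ISMC, edgeR adjusted p = 0.47).

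The arms of the hairpins kept a fixed preference in most cases. In libraries with at least 20 tags of a hairpin, the 3p arm led throughout in 17 hairpins, the 5p arm in 13, and the leading arm changed in 6. For mir-411 the 5p arm supplied 98.7 ± 0.372% of tags in PTM cells, 98.3 ± 0.450% in Leydig cells, 96.9 ± 0.973% in Sertoli cells and 96.0 ± 0.167% in VSMC (SD, n = 3 each). In mir-382, whose 3p arm had 1 count in all, and in mir-541 nearly all tags were 5p. In mir-409 and mir-667 the 3p arm led instead, with a 5p share of 2.29 ± 0.652% and 0.689 ± 0.412% in PTM cells.

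In mir-495 and mir-323 the arm ratio differed most between types. The 5p arm of mir-495 supplied 46.4%, 36.5% and 50% of its tags in PTM cells, 47.3%, 59.0% and 45.9% in Leydig cells, 59.4%, 55.3% and 81.4% in VSMC, 68.6%, 72.0% and 60.8% in ISMC and 78.8%, 76.4% and 69.7% in TSMC. PTM libraries lay below all 9 smooth muscle libraries, while Leydig and VSMC overlapped. The PTM values rest on 32, 19 and 18 tags of the 5p arm and 37, 33 and 18 of the 3p arm. For mir-323 the 5p share was 54.7%, 48.3% and 80.9% in PTM cells, 52.9%, 52.3% and 58.2% in Leydig cells, 43.7%, 48.7% and 67.0% in VSMC, 84.5%, 79.3% and 80.0% in ISMC and 88.0%, 55.6% and 68.4% in TSMC. ISMC lay above VSMC and Leydig cells, and PTM and TSMC were spread over most of that range. For mir-329 the 5p share was 27.6 ± 8.91% in PTM cells and 28.3 ± 12.6% in Leydig cells, against 7.30 ± 2.52% in VSMC and 7.10 ± 0.953% in ISMC, while TSMC ranged from 8.48% to 35.7% (SD, n = 3 each). Arm shares were not tested.

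**Figure D5:**
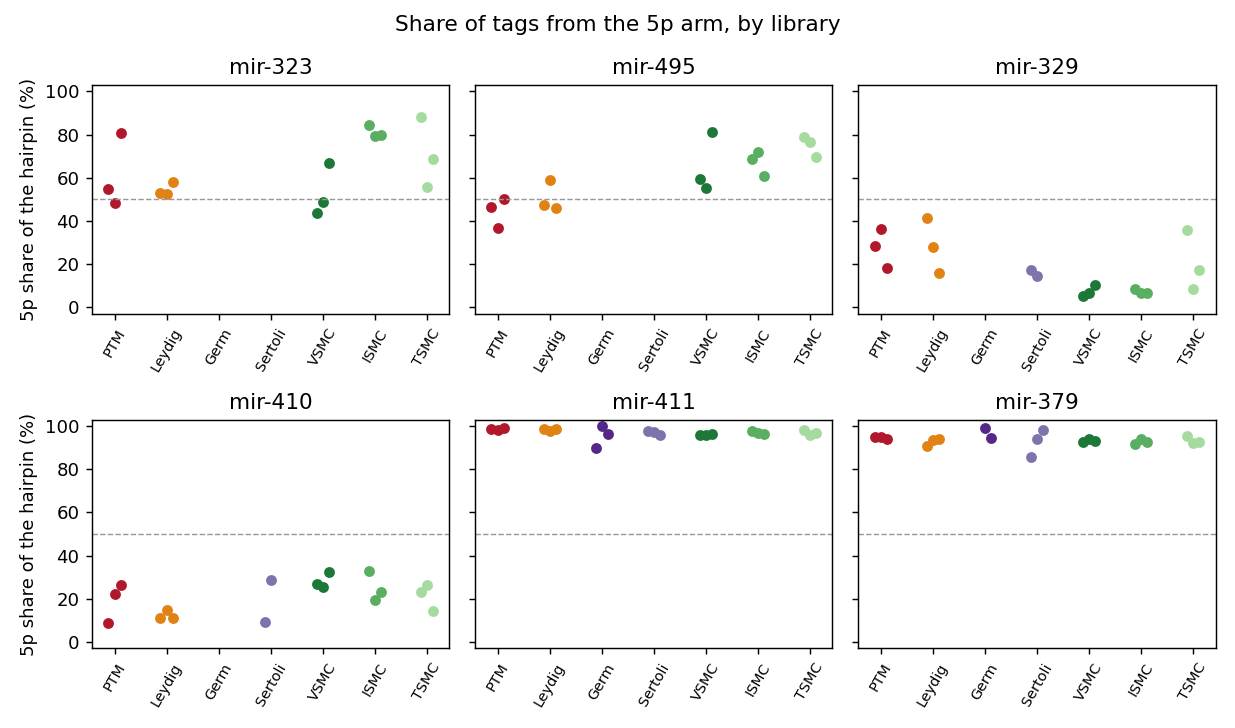
Share of a hairpin's tags that came from its 5p arm (%) in each library with at least 20 tags of that hairpin, for 6 hairpins and 7 cell types; the dashed line marks 50%. mir-495 is below or at 50% in PTM cells and above it in every smooth muscle library, while mir-411 and mir-379 stay near the top in all types.

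Other small RNAs of the region were counted with few tags. The Rfam entry of the SNORD113 and SNORD114 family, snoRNAs of Rian, had 24, 41 and 50 counts in PTM cells, 77, 15 and 151 in Leydig cells, 0, 0 and 3 in germ cells, 0, 4 and 1 in Sertoli cells, 15, 30 and 12 in VSMC, 80, 15 and 13 in ISMC and 0, 6 and 3 in TSMC. These snoRNA counts overlapped between VSMC or ISMC and both Leydig and PTM cells, whereas all TSMC counts lay below those of Leydig and PTM cells. Per M tags of all classes, the snoRNA means were 1.91 ± 0.67 in PTM cells and 3.54 ± 2.94 in Leydig cells. They were 0.84 ± 0.40 in VSMC, 1.72 ± 1.72 in ISMC and 0.16 ± 0.16 in TSMC (SD, n = 3 each). The summed miRNA members ran otherwise, with every PTM library below every smooth muscle library in share of mature tags. This difference was not tested. The precursor family mir-134 had 0, 0 and 1 counts in PTM cells, 15, 33 and 12 in Leydig cells, 1, 2 and 3 in germ cells, 0, 0 and 6 in Sertoli cells, 82, 152 and 71 in VSMC, 96, 42 and 58 in ISMC and 20, 32 and 31 in TSMC. These precursor counts were highest in VSMC and ISMC, while TSMC overlapped Leydig cells, and no test was run on them.

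Outside the region, the 5 miRNAs whose type means were most like the summed cluster were miR-345-5p (Pearson r = 0.93), miR-27b-3p (0.93), miR-1249-3p (0.91), miR-10a-5p (0.84) and miR-129-5p (0.83), over 7 type means of log2 CPM and 324 candidates with at least 50 CPM in their highest type. The points share libraries and scaling, and r is given as a description. Their ranges differed widely. The mean of miR-10a-5p was 73.8 CPM in PTM cells and 4883 CPM in VSMC, while that of miR-345-5p was 119.9 CPM in PTM cells and 300.2 CPM in VSMC.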

How the data were processed

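Counts of tags per small RNA entry were deposited by the authors, together with TPM values that were not used here. Per the labels, total RNA was extracted with TRNzol and small RNA libraries were sequenced at BGI. The submitters' processing notes name Bowtie2 and mm10, with no version or setting, and the rule for tags of several entries is not given in the sources used. PCR reads carried no stated molecular identifiers, so floors of 3 counts cover counting error only.

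Members and gene lists were chosen with earlier results of these data known. Mature entries with at least 10 counts in 3 libraries (846, of them 65 members) entered 1 edgeR 4.0.16 quasi-likelihood fit of 21 libraries (R 4.3.3, TMM, robust, 14 residual degrees of freedom). Benjamini-Hochberg adjustment ran over all 846. The script was tested on simulated data. In the simulation, 90 of 191 miRNAs changed 4-fold between PTM and Sertoli cells were called, and 0 unchanged ones. Members not called may thus still differ. Alternatives used limma 3.58.1, DESeq2 1.42.0, other scalings, filters and sample sets. The comparison of Leydig cells with TSMC, and the bound of 3 counts for groups at 0, were added after seeing the data. Named members were the 15 most abundant, the 3 largest called changes per comparison among members reaching 50 CPM in 1 of the compared groups, called members against the majority, the other arms of the first, and the miR-376 and miR-154 families.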

Additional observations from a re-analysis of the deposited data

How the results depend on the processing

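Of 206 alternative counts of called members, 169 stayed within 1.5 times the reported count, 36 moved and 1 reversed. Of 1904 values for named members, 1818 kept direction and call, 60 lost the call, 15 gained it and 11 reversed. The cause of these changes was not tested. Over all types together, replicate numbers showed no pairing of the libraries. The 63 same-number pairs had a mean correlation of 0.0017, 11 of them over 0.1, and 6 of 21 libraries lay closest to their own number. Pairing among the testicular types alone was not checked. With a replicate block, 51, 31, 42, 62, 61, 31, 6, 0, 1, 0 and 15 members were called, in the order PTM against Sertoli, Leydig, germ and smooth muscle cells, Leydig against Sertoli and smooth muscle cells, germ against Sertoli cells, VSMC against ISMC and TSMC, ISMC against TSMC, and Leydig cells against TSMC.

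With RLE scaling, calls were 27 for PTM against germ cells, 25 for germ against Sertoli cells and 30 for Leydig cells against TSMC. Medians were −3.30 for PTM cells against smooth muscle, 4.49 for Leydig against Sertoli cells, −1.63 for Leydig cells against smooth muscle and −1.29 for Leydig cells against TSMC. With library totals, the same 3 counts were 26, 27 and 31, VSMC against TSMC had 2, and the medians against smooth muscle were −3.35 for PTM and −1.75 for Leydig cells, and −1.33 for Leydig cells against TSMC. With tags of all classes as library size, 31 members were lower in germ than in Sertoli cells (median −1.85, against −3.44 for all miRNAs). In this setting 7 were higher in VSMC than TSMC. Medians were then 4.75 for PTM against germ cells, −3.67 and −1.61 for PTM and Leydig cells against smooth muscle, 1.18 and 1.52 for VSMC against ISMC and TSMC, and 0.40 for ISMC against TSMC. Shares of all tags were 0.0899% in PTM, 0.353% in Leydig, 0.00247% in germ and 0.0102% in Sertoli cells, 1.49% in VSMC, 0.850% in ISMC and 0.621% in TSMC.

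Without a filter the medians were −1.43 for Leydig cells against smooth muscle and −1.08 against TSMC. At 50 counts in 3 libraries they were −1.48 for PTM against Leydig cells, −2.82 and −1.33 for PTM and Leydig cells against smooth muscle, 0.51 and 0.68 for VSMC against ISMC and TSMC, with 14 calls for germ against Sertoli cells. DESeq2 called 23 for PTM against germ cells, 51 for Leydig cells against smooth muscle, 27 for germ against Sertoli cells, 7 and 15 for VSMC against ISMC and TSMC, 1 for ISMC against TSMC and 35 for Leydig cells against TSMC. limma-voom called 16 for germ against Sertoli cells and 5 for VSMC against TSMC. With only the compared types in the fit, edgeR called 32 for PTM against Sertoli cells (median 2.89), 16 and 20 for VSMC against ISMC and TSMC, 24 for Leydig cells against TSMC and 0 of 13 for germ against Sertoli cells (1 at an unadjusted p under 0.05), and the median for Leydig against Sertoli cells was 4.59.

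Leaving out 1 library gave 17 to 31 calls for PTM against Leydig cells, 26 to 41 for PTM against germ cells, 4 to 19 for germ against Sertoli cells (4 without Sertoli library 1 or germ library 2, 19 without germ library 1), 0 to 1 for VSMC against TSMC and 8 to 16 for Leydig cells against TSMC (8 without Leydig library 2). Medians ran 4.72 to 5.21 for Leydig against Sertoli cells, 0.56 to 0.77 and 0.74 to 0.92 for VSMC against ISMC and TSMC, and 0.20 to 0.34 for ISMC against TSMC. Reversed members were, for germ against Sertoli cells per tag of all classes, miR-134-3p (−0.92), miR-411-5p (−2.09) and miR-541-5p (−2.23, and −0.41 without germ library 3). With 1 library left out, miR-376b-5p ran from −0.57 to 0.018 for PTM cells against smooth muscle (0.018 without PTM library 3), and miR-668-3p from −1.08 to 0.077 for VSMC against ISMC (0.077 without ISMC library 1). miR-379-5p, Leydig cells against smooth muscle, turned to −0.35 with RLE scaling or DESeq2, −0.48 with library totals, −0.37 per tag of all classes and −0.17 without a filter. With groups at 0 set to the bound of 3 counts, medians were 3.18, −1.76, 2.20 and −2.96 for PTM against Sertoli, Leydig, germ and smooth muscle cells, 4.76 for Leydig against Sertoli cells and 0.63 for germ against Sertoli cells. Germ cell values are limited by depth, since 3 counts stood for 2.25, 1.58 and 3.10 CPM in germ libraries 1, 2 and 3.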
